A study of Mus musculus with 6 samples.

Results

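The 580 promoters described here were open in wildtype medullary thymic epithelial cells and had lost most of their accessibility in Kat7-knockout cells. They are windows around gene starts on chromosomes 1 to 19, and they were chosen by their counts in the 6 libraries of the study. A window was taken when its mean over the 3 wildtype libraries was at least 10 CPM, a read count scaled to the sum of the library's window counts, when its knockout mean was at most 0.4 times that, and when the highest knockout value was below the lowest wildtype value. Of 27095 windows, 25542 lay on these chromosomes and 12594 of those reached 10 CPM in wildtype; the 580 were 4.61% of these 12594 eligible windows. Since the rule used the knockout against wildtype contrast, the size of the difference at these windows is a description and not a finding.

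Accessibility was measured by ATAC-seq, in which the Tn5 transposase inserts sequencing adapters into open DNA; the labels list total RNA as the molecule, but the protocol and the design text describe ATAC-seq, and the counts were read as such. The cells were medullary thymic epithelial cells labelled as high in MHC class II, from C57BL/6 mice, and the groups were 3 wildtype and 3 Kat7-knockout biological replicates. Both groups shared the strain and the cell type. The allele, the deleted part of Kat7, any Cre driver and the age of the mice stand in none of the labels used here.

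Medullary thymic epithelial cells transcribe many genes that otherwise belong to single peripheral tissues, and they present the products to developing T cells so that self-reactive cells are removed or diverted. AIRE, which acts at many silent or weakly active promoters, is the best known factor in this. KAT7 (also called HBO1) is a MYST-family histone acetyltransferase that works in complexes with BRPF or JADE scaffold proteins and acetylates histone H3 at lysine 14 and histone H4, marks found at accessible promoters.

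The stretches just upstream of the gene start show what these promoters look like. Printed are the 6 windows with the lowest knockout to wildtype ratio that had a single RefSeq promoter and no overlapping window, a further pair of low ratio with an observed to expected CpG ratio of at least 0.5 in the whole promoter, and, for comparison, Sp1, a window outside the set that was chosen for its high level and a ratio near 1, with 530.6 CPM in wildtype and 96.7% of that in knockout. Each run is the 150 bases before the RefSeq start in build GRCm38.p6, read 5′ to 3′ on the gene's strand. Capitals mark CpG dinucleotides, the sites of DNA methylation in mammals.
Kat7, chr11:95310247-95310396, minus strand: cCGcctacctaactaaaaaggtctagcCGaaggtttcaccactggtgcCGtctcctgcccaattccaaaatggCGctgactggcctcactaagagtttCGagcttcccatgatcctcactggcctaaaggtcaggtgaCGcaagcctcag
Uggt2, chr14:119099435-119099584, minus strand: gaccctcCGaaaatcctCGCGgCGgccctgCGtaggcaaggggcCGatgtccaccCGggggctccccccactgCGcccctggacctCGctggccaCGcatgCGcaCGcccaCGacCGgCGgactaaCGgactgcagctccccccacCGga
Gulp1, chr1:44551521-44551670, plus strand: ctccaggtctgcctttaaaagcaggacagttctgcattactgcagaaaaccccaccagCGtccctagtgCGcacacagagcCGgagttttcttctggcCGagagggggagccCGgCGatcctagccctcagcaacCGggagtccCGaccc
Pgr, chr9:8899683-8899832, plus strand: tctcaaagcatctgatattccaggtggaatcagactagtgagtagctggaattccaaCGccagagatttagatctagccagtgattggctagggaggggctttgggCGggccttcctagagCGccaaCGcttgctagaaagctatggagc
Plppr1, chr4:49059312-49059461, plus strand: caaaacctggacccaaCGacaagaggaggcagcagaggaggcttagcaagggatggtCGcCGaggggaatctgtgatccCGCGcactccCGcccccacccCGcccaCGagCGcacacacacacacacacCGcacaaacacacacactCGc
Adamts3, chr5:89883335-89883484, minus strand: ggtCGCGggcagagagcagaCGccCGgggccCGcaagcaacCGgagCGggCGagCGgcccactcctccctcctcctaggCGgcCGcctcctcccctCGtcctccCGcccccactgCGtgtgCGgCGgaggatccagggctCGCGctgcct
Brinp1, chr4:68954398-68954547, minus strand: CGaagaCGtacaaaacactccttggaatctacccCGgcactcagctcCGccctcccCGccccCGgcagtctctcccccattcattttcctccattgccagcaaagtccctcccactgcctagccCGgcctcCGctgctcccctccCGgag
Lrriq1, chr10:103236323-103236472, minus strand: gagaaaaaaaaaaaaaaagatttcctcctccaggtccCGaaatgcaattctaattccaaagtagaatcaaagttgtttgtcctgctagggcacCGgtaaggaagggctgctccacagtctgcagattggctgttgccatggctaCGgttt
Sp1, chr15:102406166-102406315, plus strand: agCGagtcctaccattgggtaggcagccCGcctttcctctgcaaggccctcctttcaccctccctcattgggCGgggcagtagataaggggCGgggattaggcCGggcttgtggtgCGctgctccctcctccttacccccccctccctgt
CpG dinucleotides numbered 6 in the Kat7 stretch, 17 in Uggt2, 8 in Gulp1, 4 in Pgr, 11 in Plppr1, 18 in Adamts3, 9 in Brinp1 and 3 in Lrriq1, and 6 in Sp1. Over all 32851 promoters of the table the median was 4, with quartiles of 1 and 11, so the 8 windows of the set ran from below that median to above the upper quartile. The TATA-box letters TATAAA were in none of the 9 stretches on either strand, and 7.57% of all promoters held them. The CCAAT letters, which were in 24.5% of all promoters on either strand, were in the stretches of Kat7, Pgr, Lrriq1 and Sp1. Promoter sequence was at hand for 419 of the 580 windows (72.2%), which is too few for a statement about the set, and none is made.

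Kat7 itself, the targeted gene, had both the lowest ratio and the highest wildtype level of the set. Its window at chr11:95308246-95313246 held 286, 241 and 281 CPM in the wildtype libraries, in the order of their replicate numbers 1 to 3, against 10.5, 13.7 and 40.5 CPM in the knockout ones; all values per library below follow this order. The groups were far apart, and knockout library 3 held several times the level of the other knockout libraries. The mean of 269 ± 24.9 CPM (SD, n = 3) in wildtype fell to 21.6 ± 16.5 CPM, a level 12.5-fold lower. These values were among those that chose the window, and whether the deleted part of the gene lies in it is not known.

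Window counts summed to between 15482439 and 19832326 per library. In edgeR's test of 24817 windows, 20.2% were lower in knockout and 6.36% were higher, at an adjusted p under 0.05. All 580 windows were among the lower ones, which follows from how they were chosen, as does the fact that knockout libraries lay below wildtype libraries at each of them; the latter held for 36.4% of eligible windows. The mirrored rule, for windows gained in knockout, found 8 among 11376. Over the 12014 eligible windows outside the set the median window kept 99.9% of its wildtype mean. These windows held 92.49% to 94.96% of each library's counts, so scaling to the library's sum keeps their total nearly fixed, and a shift common to all windows could not be seen. In pooled cells, fewer cells with an open promoter and a less open promoter in each cell cannot be told apart. The replicates are biological ones per the design text. The p-values weigh the difference between the groups against the spread among these 6 libraries within their groups.

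The set lay at the low end of the accessible range. Its median wildtype level was 21.4 CPM, with a range from 10.004 CPM to the 269 CPM of Kat7, and its median knockout level was 6.32 CPM. By level, 12.9% of the eligible windows at 10 to 20 CPM belonged to it (269 of 2092), 9.97% of those at 20 to 40 CPM (237 of 2376), 1.93% of those at 40 to 80 CPM (68 of 3517) and 0.13% of those at 80 CPM or more (6 of 4609). The level moved with the change across all eligible windows too: the median log2 ratio of knockout to wildtype was -0.56 at 10 to 20 CPM and 0.07 at 80 CPM or more. Beside the shares by class, gene length and distance below, the share among windows of 10 to 40 CPM is therefore given, where 506 of 4468 (11.3%) were members. When this dependence on level was removed by loess normalisation, the median at 10 to 20 CPM was -0.11, 210 windows met the rule, all of them among the 580, and the median log2 ratio of the 580 was -1.21 in place of -1.60.

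**Figure D1:**
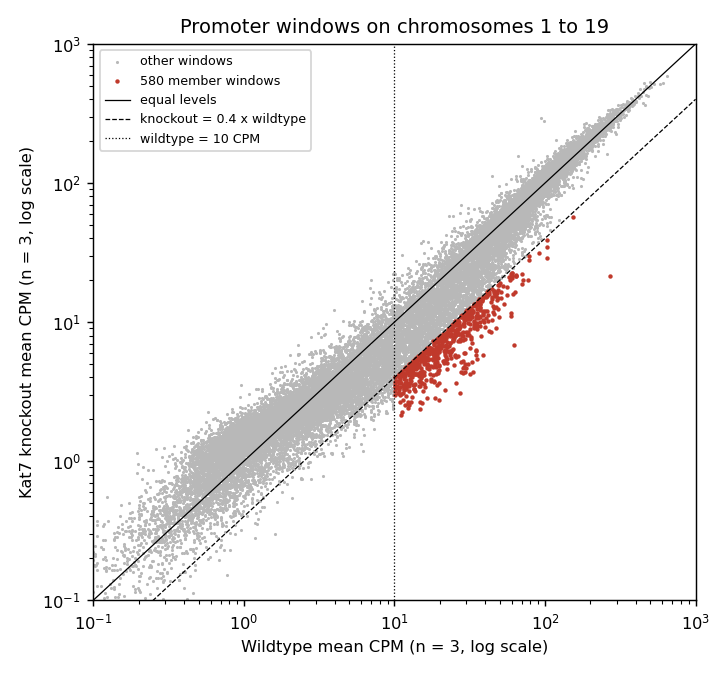
Wildtype mean (x axis) against Kat7-knockout mean (y axis) of each window on chromosomes 1 to 19, both in CPM on log scales and each over 3 libraries, with windows outside 0.1 to 1000 CPM not shown. The 580 chosen windows, in red, sit right of 10 CPM and below the dashed line of 0.4 times the wildtype level, with Kat7 alone at the far right at 269 and 21.6 CPM.

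Most of the 580 kept some accessibility. Signal kept is the knockout mean as a percentage of the wildtype mean, and its median was 33.0%. Under 20% was kept by 38 windows, 20 to 30% by 170 and 30 to 40% by 372. The cut-offs fell inside a continuum. Nova2, with 18.1 CPM in wildtype and 7.26 CPM in knockout, was just inside the ratio, and St6galnac4, with 53.5 and 21.4 CPM, just outside it. Col24a1 at 10.004 CPM in wildtype and 3.18 CPM in knockout was just inside the level, and Ranbp3l at 9.99 and 3.56 CPM just outside it.

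The knockout libraries did not lose these promoters to the same extent. The median window kept 25.03% in knockout library 1, 32.1% in library 2 and 39.5% in library 3, in each case as a share of the wildtype mean. Library 1 was the lowest of the 3 at 535 of the 580 windows (92.2%), and library 3 the highest at 525 (90.5%). Among the eligible windows outside the set, library 1 was the lowest at 37.7% and library 3 the highest at 37.0%, and they kept a median of 100.2%, 99.5% and 99.5% in libraries 1 to 3. These other windows were not matched for wildtype level, whose median was 62.1 CPM in them and 21.4 CPM in the set. Whether the order goes with the level was not tested. The Kat7 window had the order of the set, with 3.91%, 5.10% and 15.0% kept. The set's share of all window counts was 1.57%, 1.36% and 1.58% in the wildtype libraries against 0.371%, 0.453% and 0.568% in the knockout ones. Wildtype library 2 was the lowest wildtype library at 468 windows (80.7%). What sets the order of the libraries was not tested.

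**Figure D2:**
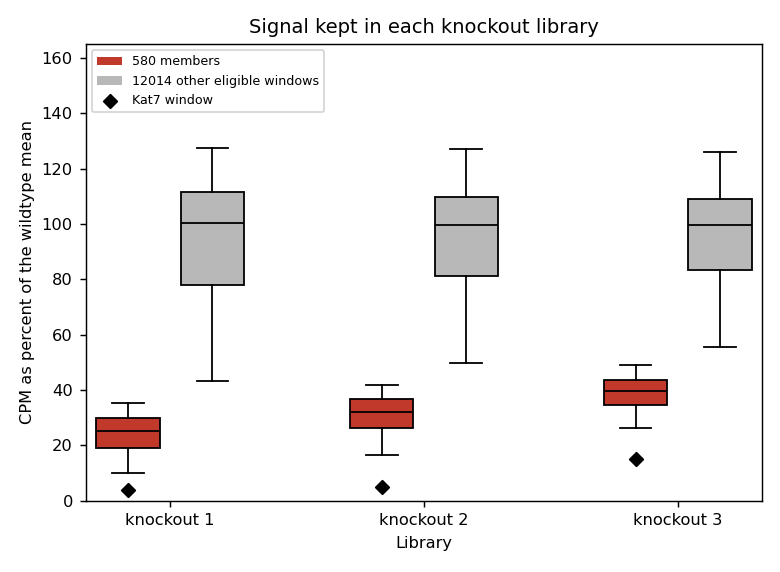
CPM in each knockout library as a percentage of the wildtype mean, for the 580 windows (red) and the 12014 other eligible windows (grey). Boxes show the median and quartiles, whiskers the 5th and 95th percentiles, and diamonds the Kat7 window; the red medians are 25.03%, 32.1% and 39.5% in knockout libraries 1, 2 and 3, while the grey ones stay near 100%. The red and grey windows were not matched for wildtype level.

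After Kat7, the windows that kept least included those of genes known from the nervous system, from hormone response and from cell adhesion. Usp29, a ubiquitin-specific protease gene of the imprinted Peg3 region, kept 11.1%, although its window overlaps another. Uggt2, a glucosyltransferase of glycoprotein folding in the endoplasmic reticulum, had 29.7, 24.3 and 28.2 CPM in wildtype and 1.87, 2.30 and 5.17 CPM in knockout. Its groups did not come near each other, and knockout library 3 was the highest of its group.

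Pgr, the progesterone receptor gene, had 30.8, 29.8 and 34.1 CPM in wildtype and 2.38, 3.41 and 6.98 CPM in knockout. Gulp1, an adaptor gene in the engulfment of dying cells, had 34.6, 29.4 and 35.6 CPM against 1.62, 3.48 and 8.01 CPM. They kept 13.5% and 13.2%, and both had their lowest value in knockout library 1.

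The same pattern ran through the rest of the leading windows. Plppr1, a phospholipid phosphatase-related gene of neurons, kept 15.0%, as did Adamts3, a protease of procollagen processing. Lrrc3b and Npsr1, the neuropeptide S receptor gene, kept 15.1% each. Gpc6, a glypican of the cell surface, kept 15.5%, and Epdr1, in a window that overlaps another, 15.4%. Reg3g encodes an antibacterial lectin of the gut; its window had 26.1, 31.0 and 33.0 CPM in wildtype and 2.48, 5.03 and 6.59 CPM in knockout. Pcdh9, a protocadherin, and Brinp1, a neural gene, kept 15.7% each, Lrriq1 kept 16.0%, and Zfp976, Gfpt2, an enzyme of the hexosamine pathway, and Ptchd4 kept between 16.2% and 16.6%.

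**Figure D3:**
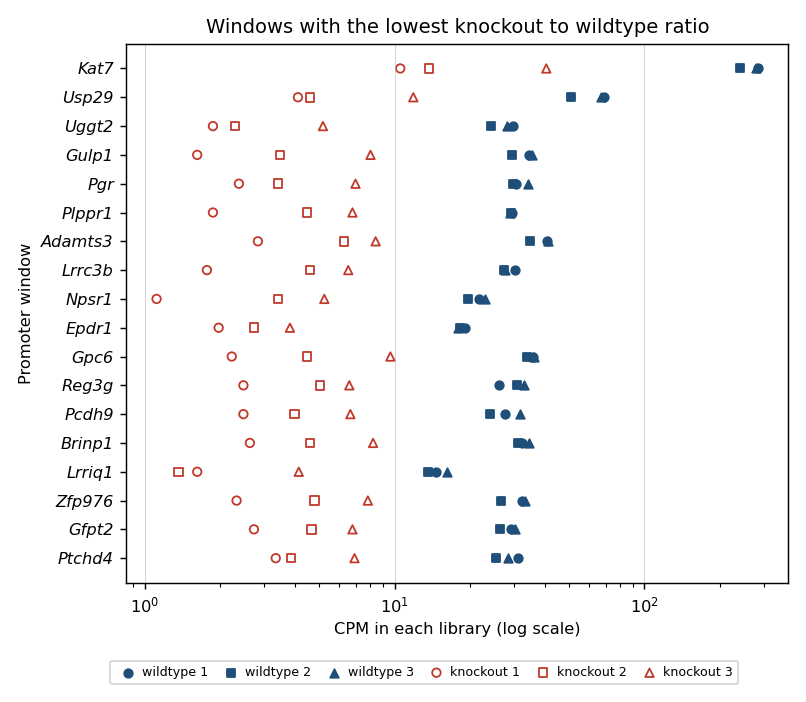
CPM in each of the 6 libraries (x axis, log scale) at windows with the lowest ratios, ordered by ratio. Filled blue symbols are wildtype and open red ones knockout libraries; the groups are separate at each window, and knockout library 3, the red triangle, is the highest of its group at each window shown.

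High wildtype accessibility was rare in the set, and the 9 windows that followed Kat7 in wildtype level kept between 26.1% and 37.97%. Hip1, which encodes an endocytic adaptor, had 170, 134 and 160 CPM in wildtype and 47.8, 57.1 and 66.5 CPM in knockout. Arc, the activity-regulated gene of synapses, fell from 104 ± 14.7 CPM (SD, n = 3) to 39.0 ± 4.46 CPM, and Pdlim2, a PDZ and LIM domain gene, from 103 ± 13.0 to 34.6 ± 4.87 CPM. Xkr4 and Xkr6, relatives of a phospholipid scramblase, went from 103 ± 10.7 to 28.7 ± 5.39 CPM and from 71.7 ± 6.95 to 19.9 ± 2.81 CPM. Lratd1, BC107364, 1700119H24Rik and Lmcd1 had wildtype means of 90.9, 78.4, 78.4 and 76.7 CPM and kept 34.4%, 35.7%, 37.97% and 26.1%. All of these windows have the full length.

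Gene classes were defined by symbol, and a gene may stand in more than 1. They cover 297 of the 580 windows. The classes with the largest shares were neural adhesion molecules, keratins, ligand-gated channels and matrix proteins, while histone, ribosomal protein, respiratory chain and proteasome genes were absent. Leaving out 1 library moved the count of 11 of the 27 classes with at least 3 members by over 1.5 times, as given with each of them. Under loess normalisation 1.74% of all eligible windows met the rule. The shares were then 14.9% for neural adhesion molecules (7 of 47), 14.3% for ligand-gated channels (8 of 56) and 9.09% for nuclear receptors (3 of 33). They were 9.09% for voltage-gated sodium and calcium channels (2 of 22), 6.45% for keratins (2 of 31) and 6.45% for matrix proteins (4 of 62). The class sizes and members below are a description, and no enrichment was tested. Of the 559 windows with a RefSeq entry, 510 belonged to protein-coding genes, 30 to long noncoding RNA genes and 8 to microRNA genes.

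Neural adhesion molecules, as matched by symbol, led with 13 of 50 eligible windows (26.0%, and 37.9% at 10 to 40 CPM). Igsf23, an immunoglobulin-family gene, was counted here by its symbol alone. Nlgn2, which encodes a synaptic neuroligin and whose window overlaps another, had 29.3, 20.9 and 26.8 CPM in wildtype and 4.26, 6.39 and 6.201 CPM in knockout. Slitrk1, a synaptic adhesion gene, kept 22.1%, and Cntn1, which encodes the axonal protein contactin 1, kept 24.9%. Cadherins and protocadherins held 5 of 43 windows (11.6%, and 22.2% at 10 to 40 CPM), with Pcdh9 lowest and Cdh6 next at 23.1% kept. Axon guidance genes held 5 of 62 (8.06%, and 17.2%), among them the ephrin receptor genes Epha3 at 21.4% and Epha5 at 26.2% kept. The axon guidance count was 3 without wildtype library 1 or without knockout library 1.

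Ion channel genes were the next large group. Ligand-gated and TRP channels held 12 of 59 eligible windows (20.3%, and 26.8% at 10 to 40 CPM). Gabrb1 and Gabra4, which encode subunits of the GABA-A receptor, kept 19.8% and 23.9%. Grid1, a delta glutamate receptor gene, kept 26.0%. It had 66.6, 53.6 and 63.6 CPM in wildtype and 12.6, 18.8 and 16.3 CPM in knockout, so that here knockout library 2 was the highest. Voltage-gated sodium and calcium channels held 4 of 24 (16.7%, and 25%). These were Scn8a and Scn9a, sodium channel genes of neurons, at 21.5% and 26.0% kept, and the calcium channel subunit genes Cacnb2 and Cacna2d2 at 29.5% and 31.2%. Potassium channels held 7 of 55 (12.7%, and 20.6%), led by Kcnt2 at 20.4% and Kcnmb2 at 24.2% kept; their count was 4 without wildtype library 1 or without knockout library 1.

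Matrix and surface structure gave the other large shares. Collagens, laminins and matrix proteins held 14 of 69 eligible windows (20.3%, and 23.1% at 10 to 40 CPM). Lama1, a laminin chain of basement membranes, fell from 27.7 ± 2.72 CPM (SD, n = 3) to 5.201 ± 2.41 CPM, and Col11a1, a fibrillar collagen of cartilage, from 11.2 ± 1.29 to 2.25 ± 1.05 CPM. Efemp1 kept 19.4% and Spock3 27.3%. Without knockout library 1 this class held 9 windows. Keratins and intermediate filaments held 8 of 33 (24.2%, and 34.8%). Krt12, the keratin of corneal epithelium, had 14.5, 10.4 and 15.7 CPM in wildtype and 2.08, 2.79 and 5.04 CPM in knockout. Krt20, the keratin of gut epithelium, kept 26.4%, and the hair keratin-associated genes Krtap13-1 and Krtap2-4 kept 30.2% and 31.7%. Serine proteases, serpins and Spink inhibitors held 10 of 60 (16.7%, and 20%), with Serpine2 at 24.1%, Prss28 at 24.6%, Klk4, a protease of tooth enamel, at 31.7%, and Klk8 at 32.6% kept.

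Growth factors, their receptors and antagonists, as matched by symbol, held 14 of 121 windows (11.6%, and 19.1% at 10 to 40 CPM). Dkk1 and Dkk2, which encode secreted Wnt inhibitors, kept 31.4% and 31.7%, and Egflam, placed here by its symbol alone, kept 30.7%. Under loess normalisation 1 window of this class met the rule (0.877%). Receptors of the G protein-coupled family, as matched by symbol, held 14 of 168 (8.33%, and 12.5%). Of these, the prostaglandin receptor gene Ptger2 kept least at 18.6%, with Gpr37 at 22.2%. Npsr1, named above with less signal kept, also encodes such a receptor, but its symbol was not matched, so the class is incomplete. Gpr139 kept 22.7% and Hrh1, a histamine receptor gene, 27.3%. Without knockout library 1 the class held 7 windows. Solute carriers held 17 of 233 (7.30%, and 18.2%). Slc6a15, a transporter of neutral amino acids, went from 29.6 ± 3.89 to 4.96 ± 2.58 CPM (SD, n = 3), and Slc40a1, the iron exporter ferroportin, from 18.7 ± 2.55 to 4.20 ± 1.46 CPM. Cyclic nucleotide enzymes and kinases held 10 of 156 (6.41%, and 18.2%), among them Gucy1b1, a subunit of the nitric oxide receptor guanylate cyclase, at 24.4% and Prkg1 at 25.2% kept; without knockout library 3 there were 16.

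Genes of enzymes and of the cell's filaments gave intermediate shares. Lipid enzymes, as matched by symbol, held 8 of 97 windows (8.25%, and 14.9% at 10 to 40 CPM), with Plcd1, a phospholipase C gene, falling from 69.9 ± 6.55 to 18.8 ± 6.38 CPM (SD, n = 3). Apoa4 and Fabp3 were placed in this class by symbol alone and encode no enzyme. The cytochrome P450 and conjugating enzymes held 5 of 90 (5.56%, and 9.26%), led by the sulfotransferase gene Sult1b1 at 17.2% kept; there were 3 without wildtype library 3 or knockout library 1, and 8 without knockout library 3. Motor and sarcomere genes held 5 of 97 (5.15%, and 10%), led by Fmn2, a formin that nucleates actin, at 19.7%, and Sgcz, a sarcoglycan, at 23.0%, and there were 8 without knockout library 3. A mixed class of cilium genes with the Ccdc, Lrrc, Ttc and Spata families held 20 of 241 (8.30%, and 17.5%), with Lrrc3b, Lrrc9 and Odf3l1, a gene of the sperm tail, at 15.1%, 20.6% and 22.5%.

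Among transcription factors, the nuclear receptors in the set were Pgr, Esr1 and Ppara, 3 of 35 eligible windows (8.57%, and 14.3% at 10 to 40 CPM). Esr1, the oestrogen receptor gene, had 18.2, 18.8 and 21.7 CPM in wildtype and 2.28, 3.97 and 6.72 CPM in knockout; Ppara, which encodes a fatty acid sensor of liver, kept 29.2%. Without knockout library 3 the nuclear receptors numbered 5. Homeobox and paired-box factors held 9 of 138 windows (6.52%, and 8.25%). Isx, an intestinal homeobox gene, had 63.4, 48.5 and 65.0 CPM in wildtype and 5.98, 9.50 and 17.4 CPM in knockout. Irx4, a gene of the heart ventricle, kept 18.5%, and the class held 5 windows without knockout library 1. Tbx20, Tbx1, Sox11 and Foxn4 stood for the forkhead, SOX and T-box factors (4 of 53, 7.55%, and 19%) and kept between 28.7% and 37.8%. Zinc finger factors held 8 of 390 (2.05%, and 6.96%); gene models without a proper name, such as those of the chromosome 2 region below, are not in that class. MicroRNA genes held 8 of 86 windows (9.30%, and 12.7%), led by Mir1936 and Mir346 at 21.4% and 24.6% kept, and 5 without knockout library 1.

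Immune receptors and immunoglobulin-family genes held 6 of 141 windows (4.26%, and 9.23%), near the shares over all genes of 4.61% and 11.3%, with Cd200, an inhibitory surface ligand gene, at 19.99% and Trem2 at 30.5% kept. Cytokines, chemokines and their receptors held 3 of 129 (2.33%, and 5.26%), which were Cxcl14, Il33 and Il2rb. Their number was 5 when wildtype library 2 was left out and 6 when knockout library 3 was. Ubiquitin ligases and their adaptors, as matched by symbol, held 9 of 270 (3.33%, and 8.89%). Usp29, a protease gene and no ligase gene, was counted among them. None of 41 histone genes, 104 ribosomal protein genes, 64 genes of the mitochondrial respiratory chain, 36 proteasome genes and 139 genes of splicing and translation was in the set. Of these, 14, 28, 10, 5 and 21 lay at wildtype levels of 10 to 40 CPM.

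**Figure D4:**
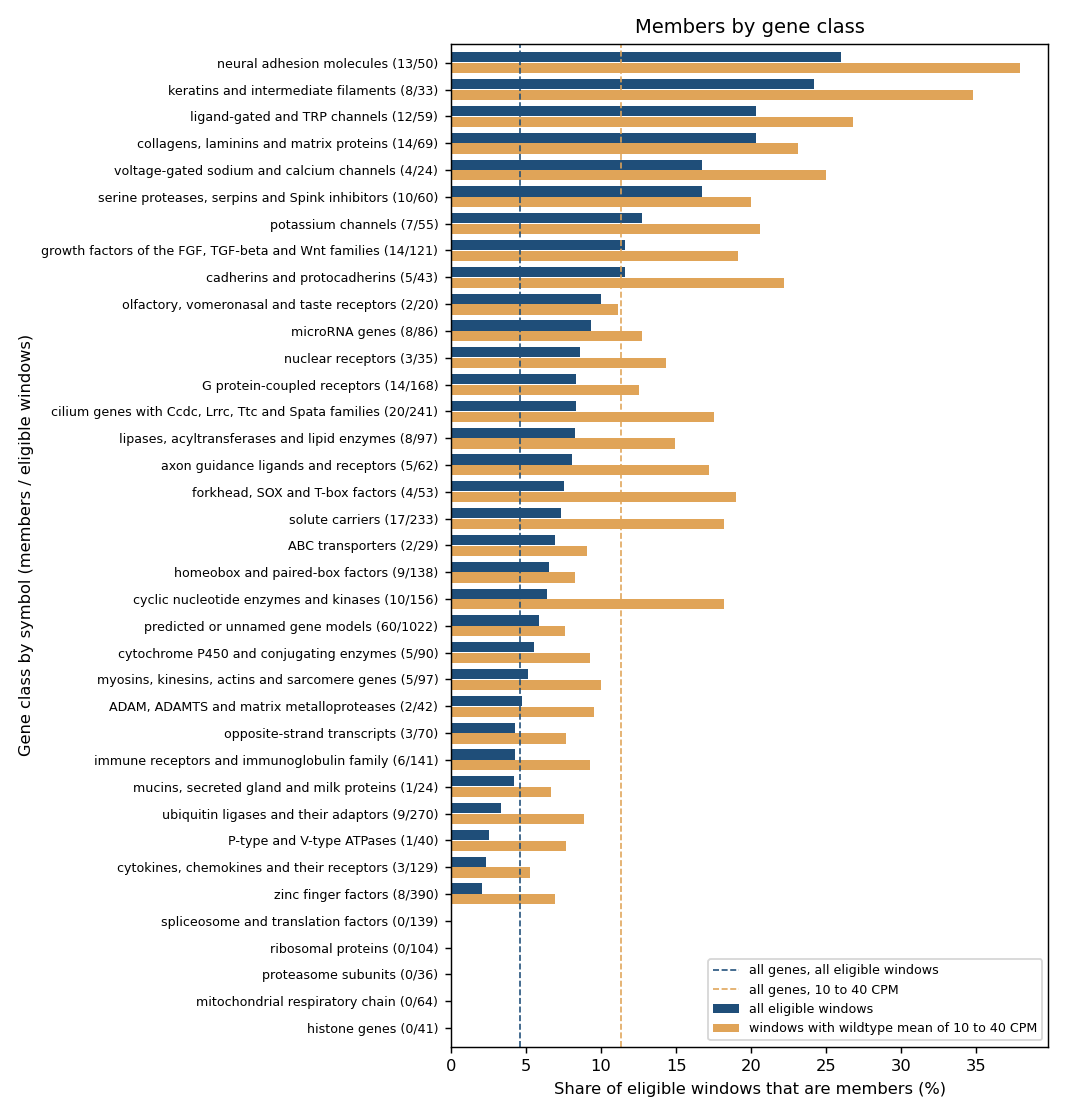
Share of eligible windows that belong to the set (x axis, percent) for gene classes with at least 20 eligible windows, over all eligible windows (blue) and over those with a wildtype mean of 10 to 40 CPM (orange). Dashed lines mark the shares over all genes, 4.61% and 11.3%; neural adhesion molecules stand at 26.0% and 37.9%, and the housekeeping classes at the bottom at 0.

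Among lists of cell type genes, those known as AIRE-induced and those of enterocyte- and hepatocyte-like mTECs held the most members. The lists differ in wildtype level, and their counts were not matched for it. In wildtype the 25 maturation genes summed to between 3774.5 and 3909.8 CPM, and the 26 AIRE-induced ones to between 394.5 and 422.85 CPM. Over all genes, 11.3% of windows at 10 to 40 CPM in wildtype and 0.13% of those at 80 CPM or more were members. Counts are over the windows that reached 10 CPM, of which 4.61% were members over all genes. None of 22 such genes for the maturation of mTECs and for antigen presentation was in the set; of all 25 on the list, 8 were lower and 0 higher in the test, against 20.2% and 6.36% of all windows tested. Aire, whose window overlaps another, stood at 74.6 ± 3.66 CPM in wildtype (SD, n = 3) against 62.5 ± 2.21 CPM in knockout. Genes known as AIRE-induced contributed 5 of 12 eligible windows, with 26 measured. They were S100a8, a calcium-binding protein gene of neutrophils, Ambp, a liver plasma protein gene, Csn2, the milk protein beta-casein, Npy, a neuropeptide gene, and Apoa4, an apolipoprotein gene of gut and liver; they kept between 26.8% and 39.3%. Csn2 had 15.8, 14.6 and 18.4 CPM in wildtype and 5.42, 6.52 and 6.78 CPM in knockout. Of the 26 measured AIRE-induced genes, 9 were lower and 2 higher in the test. Genes of enterocyte- and hepatocyte-like mTECs contributed 3 of 11, with 17 measured, namely Reg3g, Cdhr5 and Apoa4. Atp6v1b1, a proton pump gene of ionocytes, and Tekt1, a cilium gene, were the only members from their lists, with 7 and 13 eligible windows. The lists for tuft-like, microfold-like, neuroendocrine-like, muscle-like and keratinocyte-like mTECs contributed none of 13, 8, 9, 7 and 12. In the test 8 of 16 muscle-like and 4 of 10 microfold-like genes were lower and 0 higher. Lower were also 6 of 15 neuroendocrine-like and 6 of 18 keratinocyte-like genes, with 1 higher in each list. Of the lists with members, 10 of 17 enterocyte- and hepatocyte-like, 8 of 13 ionocyte-like and 10 of 17 ciliated-like genes were lower and 0 higher. The tuft-like list went the other way, with 9 of 19 genes higher and 2 lower in the test.

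Markers of other cells that a sort can carry along gave 1 member, the endothelial gene Pecam1, and the lists moved in different directions. In the test 4 of 6 B-lineage genes were lower and 0 higher, and 0 of 8 T-lineage genes were lower and 3 higher, which were Themis, Cd8a and Cd4. Of 6 mesenchymal genes 3 were lower, Pdgfrb, Pdgfra and Col1a2, and 2 were higher, Dcn and Lum. Of 9 myeloid genes 3 were lower and 1 higher, and of 5 erythroid genes 2 were lower and 0 higher. Over all windows tested, 20.2% were lower and 6.36% higher. No T, B, myeloid, mesenchymal or erythroid marker was in the set. In that order, only 1, 3, 2, 4 and 2 of these markers were eligible. Over all genes, 4.61% of eligible windows were members. Col1a2 kept 39.0%, but its 8.43 CPM in wildtype was under the level of the rule. The summed accessibility of each list in wildtype and knockout was 29.1 to 33.3 and 35.4 to 43.8 CPM for 8 T-lineage genes. It was 63.9 to 69.0 and 36.6 to 45.4 CPM for 6 B-lineage genes. The sums were 104 to 110 and 95.9 to 105.2 CPM for 9 myeloid genes. For 6 mesenchymal genes they were 124 to 134 and 98.0 to 115 CPM, and for 5 erythroid genes 115 to 118 and 94.0 to 96.6 CPM. Pecam1 was the member among 5 endothelial genes, of which 2 were eligible. It had 15.6, 14.6 and 14.3 CPM in wildtype and 4.71, 6.27 and 6.52 CPM in knockout. The other endothelial markers did not move as 1: Kdr went from 8.62 to 3.33 CPM, Tek from 10.8 to 17.3 CPM, and Cdh5 had 7.86 and 6.33 CPM. Emcn was near 1 CPM in both groups, at 0.942 and 1.66 CPM, and the list's sum was 42.1 to 44.5 CPM in wildtype and 29.8 to 38.6 CPM in knockout. The part of other cells in the result was not tested. The 14 genes of mTEC identity summed to 2289.8 to 2492 CPM in wildtype and 2538 to 2603 CPM in knockout, so the labelled cell type's markers were accessible in both groups as a sum. They were not all alike: Foxn1, the master factor of thymic epithelium, went from 93.7 ± 24.9 to 295.8 ± 12.6 CPM (SD, n = 3) and Krt5, a basal keratin gene, from 68.8 ± 5.58 to 103 ± 13.0 CPM, the 2 of this list that were higher in the test.

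The genes of the set were long and stood apart from others. Their median length was 33865 bases, against 21639 for the other eligible windows. Of the eligible genes shorter than 10 kb, 3.44% were members, and of those of 300 kb or more 17.6% (60 of 341). At wildtype levels of 10 to 40 CPM the share rose at every step, from 7.37% under 10 kb through 10.4%, 14.1% and 19% to 29.2% at 300 kb or more (47 of 161). Gpc6 and Pcdh9, among the leading windows, are genes of 1054610 and 879135 bases.

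Distance to the nearest other window gave the same kind of gradient. Where another window overlapped, 2.69% of the eligible windows belonged to the set, and where the nearest was 200 kb or more away, 18.6% did (77 of 413). At 10 to 40 CPM these shares were 5.02% and 35.9% (65 of 181), with 7.74%, 11.0% and 16.4% in the steps between. Long genes are often far from other genes, and the length and the distance were not separated. By chromosome the share ran from 2.95% on chromosome 19 to 7.02% on chromosome 14.

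Members lay near other members more often than the other eligible windows did. This comparison was not matched for wildtype level, whose median was 21.4 CPM in members and 62.1 CPM in the other eligible windows. Another member lay within 500 kb of 218 members (37.6%), and a member lay that near to 27.4% of the other eligible windows. Within 100 kb the shares were 14.1% (82 members) and 6.27%, and within 1000 kb 52.4% and 43.3%. When the set was chosen anew without knockout library 3, 345 of its 769 members had another within 500 kb. A larger set has more near members by count alone, and the share over other windows was not recomputed. The nearest eligible window that shared no base with it was itself a member for 95 of the 580 (16.4%), and for 389 of the 12014 others (3.24%). Joining members within 500 kb left 362 alone and gave 69 pairs, 11 groups of 3, 5 of 4, 3 of 5 and 2 of 6.

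Close neighbours of members, those outside the set included, had a lower median ratio than close neighbours of other windows. For the 111 members whose nearest eligible neighbour was under 20 kb away, the median log2 ratio of that neighbour was -0.53, and 82.9% of these neighbours were below their wildtype mean. For the 4528 other windows with so near a neighbour the values were -0.02 and 54.3%. Leaving out neighbours that were members themselves, the median was -0.39. It was -0.36 at 20 to 50 kb and -0.40 at 50 to 100 kb over all neighbours of members, and -0.11 at 100 to 200 kb. From 200 to 500 kb it was -0.03, against 0.04 around other windows. Neighbours share the libraries, and these values carry no test and were not matched for wildtype level.

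**Figure D5:**
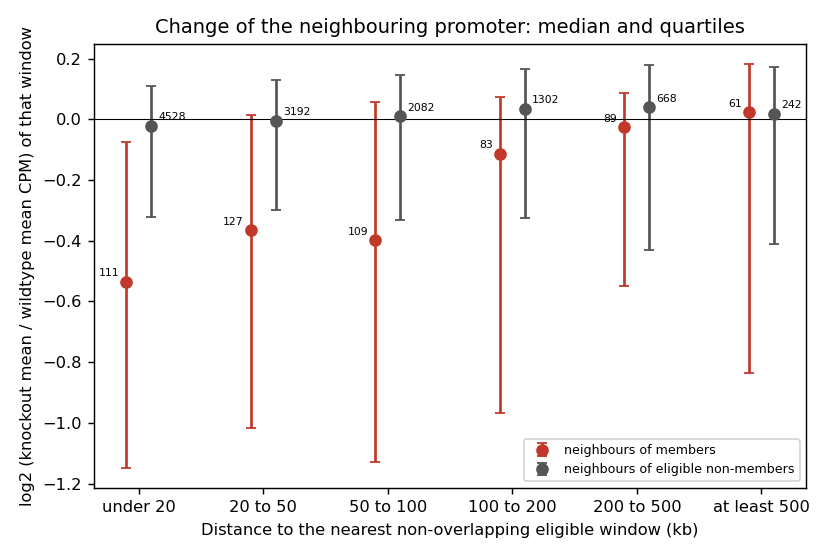
log2 ratio of knockout to wildtype mean CPM at the nearest non-overlapping eligible window (y axis), by its distance in kb (x axis), for neighbours of the 580 windows (red) and of the other eligible windows (grey). Points are medians, bars run between the quartiles, and the numbers are counts of windows; the red medians lie at -0.53 under 20 kb and at -0.03 from 200 to 500 kb.

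A keratin cluster on chromosome 11 was 1 of the 2 largest groups. Between 99087306 and 99617846 it held the members Tns4, Krt25, Krt12, Krt20, Gm11938 and Krtap2-4, which kept between 24.4% and 34.7%. Krt20 had 17.5, 15.6 and 20.8 CPM in wildtype and 2.89, 5.34 and 6.01 CPM in knockout, and its neighbour Krt12 lies 10.9 kb away. Of the 6 eligible windows in the interval that were no members, 4 had a lower mean in knockout. Ccr7, a chemokine receptor gene, kept 46.1% and Krt23 44.5%, but Smarce1, a chromatin remodelling gene, and Krt222 stood at 128% and 132%.

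The other group of 6 was the kallikrein cluster on chromosome 7, from 43631739 to 44312264. Kallikreins are secreted serine proteases of skin, glands and teeth. Klk8, Klk4, Klk15 and Klk1b7-ps kept between 31.7% and 36.7%, and Ceacam18 and Shank1, a synaptic scaffold gene whose window overlaps another, at its ends kept 39.2% and 23.0%. Klk4 had 46.4, 39.0 and 45.4 CPM in wildtype and 10.4, 14.8 and 16.3 CPM in knockout. Klk9 and Klk10, which reached 10 CPM but were no members, kept 51.9% and 62.8%, and the other kallikrein windows were under 10 CPM in wildtype. Ctu1, a tRNA modification gene inside the interval, kept 91.2%, and 2410002F23Rik stood at 111%. Reads of near-identical kallikrein copies could be split or lost in counting.

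On chromosome 14, from 34150419 to 34894706, Npy4r, Gprin2, Ldb3, Grid1 and Mir346 were members. Ldb3, a gene of the muscle Z-disc, had 23.4, 22.9 and 28.9 CPM in wildtype and 4.51, 5.59 and 7.10 CPM in knockout. Grid1 and Mir346, which lies 69.5 kb from the Grid1 window, kept 26.0% and 24.6%. Inside the interval, Bmpr1a and Wapl, a BMP receptor and a cohesin release gene, kept 96.5% and 108%. On chromosome 17, from 25305646 to 25968505, the members were Prss28, Sstr5, Mslnl, Rhbdl1 and Capn15. That interval is dense, and 19 of its 21 eligible windows that were no members had a lower mean in knockout. Rab40c and Stub1, strongly accessible genes there, kept 97.2% and 93.9%.

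A zinc finger region at the end of chromosome 2 held 2 further groups, of 5 and of 4 members; the latter is the shortest of the 5 groups of 4. From 175139994 to 175804038 the members were Gm14399, Gm14440, Gm4724, a gene with no symbol in the files, and Gm14288, and they kept between 31.7% and 36.8%. Gm14399 had 61.3, 59.1 and 61.3 CPM in wildtype and 18.2, 21.8 and 23.9 CPM in knockout. From 177461742 to 177899163 they were Zfp970, Gm14403, Gm14322 and Gm14327, and Gm14403 had 40.9, 27.9 and 36.3 CPM against 3.85, 4.35 and 9.30 CPM. Gm14325 between them kept 75.5%. Over the stretch around both groups, which was chosen after its values were seen, 11 of 20 eligible windows were members, and the other 9 also had a lower mean in knockout. These genes are near copies of each other, so how reads were shared among them is uncertain.

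Pairs of related genes were among the 69 pairs. Gabra4 and Gabrb1, on chromosome 5, lie 35.7 kb apart, and both had their lowest value in knockout library 1, at 1.98 and 0.962 CPM. Gabra4 had 15.4, 11.4 and 16.9 CPM in wildtype, and Gabrb1 12.2, 11.2 and 13.3 CPM. Gucy1b1 and Gucy1a1, the 2 subunits of the same guanylate cyclase, lie 66.2 kb apart on chromosome 3 and kept 24.4% and 34.8%; the second of them was named after its values were seen. Uggt2 paired with Hs6st3, a heparan sulfate sulfotransferase gene 32.8 kb away, likewise named after its values were seen, which kept 23.2%.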

How the data were processed

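Per the submitters' processing notes, the authors counted ATAC-seq reads per gene window with featureCounts on mouse build mm10, and they deposited raw counts; the aligner, the treatment of duplicates and the shift for the transposase offset are named in none of the sources used here. Duplicates left in would add counts at single windows, while the lack of a shift would displace cuts by very little on the scale of a window. A window reaches from 3000 bases before to 2000 after the gene start, reads in shared stretches may be lost, and 37 of the 580 windows share bases with another. The 6 library tables held the same counts as the series table.

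CPM is the count scaled to the library's column sum. The 580 windows and all gene lists were chosen with earlier results of these data known. edgeR 4.0.16 in R 4.3.3 (filterByExpr, TMM factors from 0.884 to 1.06, robust quasi-likelihood test, Benjamini-Hochberg at 0.05 over 24817 windows, no block) gave the background; the biological coefficient of variation was 10.9%. It was checked on simulated counts. DESeq2 1.42.0 and loess offsets (limma 3.58.1) were among the alternatives. Library sums of 15482439 to 19832326 counts gave at least 120 wildtype and 17 knockout counts at each of the 580 windows, and 3 counts, the limit that a count of 0 allows, are 0.151 to 0.194 CPM. This covers counting error only.

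Named were Kat7, the 20 windows of lowest ratio, the 10 of highest wildtype level, up to 4 of lowest ratio in each class of at least 3, those in the 6 largest groups of members within 500 kb (ties by shortest span, settled after the groups were seen) with the eligible windows between them, those next to the thresholds, and members on marker lists. Symbols came from the files, with 16 filled from a RefSeq table of GRCm38.p6, which matched 559 of the 580 (96.4%) and gave gene lengths; promoter sequences are RefSeq's of that build. Some windows that this rule names are not reported here.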

Additional observations from a re-analysis of the deposited data

How the results depend on the processing

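The number of windows in the set depended on the rule and the scaling. It was 580 with or without the requirement that groups not overlap, 609 with TMM-scaled CPM (all 580 among them), 210 after loess normalisation of CPM against level, 208 at a ratio of at most 0.3, 1190 at a ratio of at most 0.5, 714 and 311 at wildtype means of at least 5 and 20 CPM, and 543 without windows that share bases. Leaving out 1 library gave between 429 (without knockout library 1) and 769 (without knockout library 3). Loess moved the median log2 ratio of windows at 10 to 20 CPM from -0.56 to -0.11; whether the fall at low levels is a matter of scaling was not tested. Members with another within 500 kb numbered 218, against 82 within 100 kb, 304 within 1000 kb and 152 to 345 when 1 library was left out. The sets with 1 library left out held 429 to 769 windows, and the count rises with the size of the set. Nearness was not recomputed for the 210 windows left after loess normalisation.

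Over all windows tested, 5011 were lower and 1578 higher in knockout. The higher ones numbered 2937 with library totals only, 4732 with loess offsets, 2824 with a replicate block, and 689 (without wildtype library 1) to 3177 (without knockout library 1) when 1 library was left out; the cause was not tested. The lower ones stayed between 4080 (DESeq2) and 5709. All 580 were lower in each fit except those without wildtype library 1, 2 or 3, where 577, 579 and 576 were. Kat7's log2 fold change was -3.66 (edgeR adjusted p = 0.0143), a description since the rule used this contrast, and it ran from -4.41 to -3.38 when 1 library was left out. It had an edgeR adjusted p of 0.0643 without wildtype library 1 and 0.0565 without wildtype library 3; over the other alternatives the adjusted p ran from 1.05e-130 to 0.043.

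The main fit did not pair the samples by replicate number. Correlations of same-numbered deviations from the group means were 0.373, 0.03 and 0.387, each the highest for its wildtype library. Differently numbered libraries gave values from -0.443 to 0.305, and whether equal numbers share a batch was not tested. With the replicate block 5537 windows were lower and Kat7 was at -3.81 (edgeR adjusted p = 0.043). All 160 recomputed log2 ratios of the leading windows moved by no more than the SD of their log2 CPM in the knockout libraries. Leaving out a knockout library can hardly move a ratio further than that SD, so there the outcome was close to fixed. Of 270 class counts 205 stayed within 1.5 times and 65 did not. The planned check of CpG-poor promoters was not run, because sequence was at hand for 72.2% of the windows. Depth limits windows under 10 CPM, which were not eligible.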

Other observations

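The X chromosome, which the rule leaves out, held windows of the same kind. Of 379 X windows with a wildtype mean of at least 10 CPM, 29 (7.65%) met the other criteria. Hdx, a homeobox gene, had 17.5, 13.4 and 16.7 CPM in wildtype libraries 1 to 3 and 0.456, 1.43 and 3.23 CPM in knockout libraries 1 to 3, and it kept 10.7%. Stard8 kept 19.1%. Armcx6, Armcx3 and Armcx2, neighbouring genes of 1 family, kept 19.5%, 20.3% and 22.4%, although the first 2 windows overlap. These windows were looked at after the autosomal results, and their values are descriptions with no test. X windows made up 1.74% to 1.82% of all window counts in each of the 6 libraries.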
